A study of Bos taurus with 5 samples.

Results

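The genes described here build, tether, fuse and sort the membrane vesicles of the cell, and were chosen by name: a gene belonged if its symbol began as those of vesicle coat subunits, SNARE proteins, tethering complexes or endosomal sorting complexes do. The deposited table held 9022 genes, of which 180 belonged, under 179 symbols, because COG5 stood under 2 gene identifiers. The RNA came from a back muscle, longissimus dorsi, of 5 Jiaxian Red cattle at an age of 18 months, and each animal gave 1 library. The 5 libraries formed 1 group without a treatment or control, so genes were compared with each other within libraries, and spread was described between libraries. Values were FPKM (fragments per kilobase of transcript, scaled to the mapped fragments of a library), a unit that allows levels of different genes to be compared. They were given per transcript, and a gene's value here is the sum of its transcripts.

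Cargo leaves the endoplasmic reticulum in vesicles coated by COPII, and COPI-coated vesicles carry material back from the Golgi apparatus. Clathrin and its adaptors coat vesicles at the plasma membrane, the Golgi and endosomes. Tethers bring a vesicle to its target, where SNARE proteins on both membranes zip together and drive fusion. In endosomes, ESCRT complexes sort cargo for breakdown, while retromer, sorting nexins and the WASH and COMMD complexes return it. In skeletal muscle this machinery is known for the insulin-dependent delivery of the glucose transporter GLUT4 to the fibre surface and for upkeep of the membrane invaginations that carry excitation.

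Markers of the labelled tissue were abundant: ACTA1, TNNC1, MYH7 and TNNT3, genes of the contractile apparatus, lay between 2170.0 and 5658 FPKM in all 5 libraries. CKM, the muscle creatine kinase gene, was lower, at 35.5, 14.9, 18.5, 9.67 and 2.5 FPKM in libraries 1 to 5. MB, which encodes myoglobin and had a gap in its transcript numbers, was at 106, 133, 153, 214 and 766 FPKM, highest in library 5, where CKM was lowest. Transcripts that did not appear in the table contribute nothing to a sum. The listed transcript numbers of 66 of the 180 members (36.7%) had gaps below the highest number, against 34.7% of all numbered genes, and the sums of those members may be partial. A sum without a gap may be partial too, since missing numbers above the highest listed one cannot be seen. In whole muscle, fewer cells of a type and less RNA per cell cannot be told apart. The depth of sequencing cannot be read from FPKM; summed over all genes, FPKM ran from 193706 in library 1 to 223251 in library 4.

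Most of the listed members were present at a moderate level. Genes of these families that were not listed could not be counted. A mean of at least 1 FPKM, the detection limit used here, was reached by 143 of 180 members (79.4%), against 68.0% of all genes in the table; 126 members reached 1 FPKM in each of the 5 libraries. The median of the members' means was 6.50 FPKM, and that of all listed genes 3.05 FPKM. Among detected genes alone these medians were closer, at 8.07 FPKM for members and 6.38 FPKM for all. Means of 10 FPKM or more were found for 57 members, 20 or more for 13, and 40 or more for 5. Those 5 were SEC61G, GOLGA4, CLTC, PICALM and USO1. Counts over all genes at these levels, and at 1 FPKM in each library, were not made. Together the members held 0.728%, 0.750%, 0.750%, 0.765% and 0.781% of the summed FPKM in libraries 1 to 5. Of the 37 members under the limit 21 (56.8%) had gaps in their transcript numbers, against 45 of the 143 others (31.5%); over all numbered genes the shares were 40.1% below the limit and 32.6% above it.

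**Figure D1:**
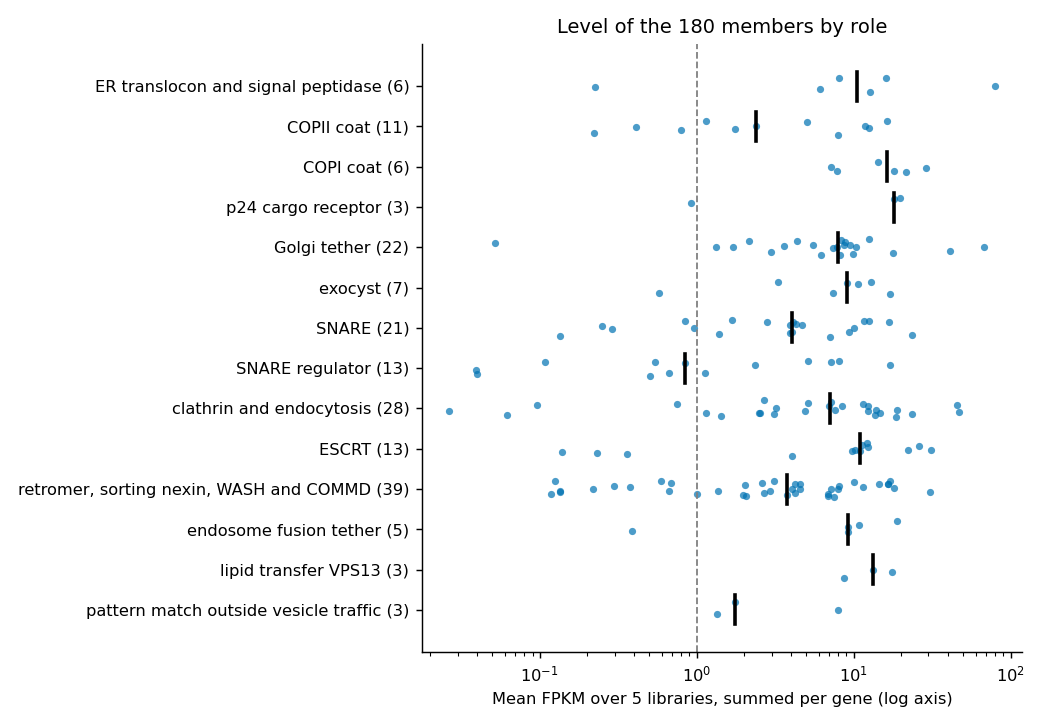
Mean FPKM over 5 libraries (log axis) of each of the 180 members, 1 point per gene, grouped by role with the number of genes in brackets; black bars are medians over all members of a role and the dashed line marks 1 FPKM. The COPI coat has no member under 1 FPKM, and among the 14 roles the SNARE regulators alone have a median below it.

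At the endoplasmic reticulum the translocon subunit gene SEC61G was the most abundant of all members. It was at 46.5, 63.9, 79.6, 129 and 80.1 FPKM in libraries 1 to 5. The highest value, in library 4, was 2.77 times the lowest, in library 1, and its SD on the log2(FPKM + 1) scale, 0.53, exceeded that of 85.7% of detected genes. SEC63, which helps drive chains through the pore, averaged 16.1 ± 0.958 FPKM and SEC61A2, a pore-forming subunit, 12.8 ± 1.96 FPKM (SD, n = 5). SEC61B, the beta subunit, averaged 0.226 ± 0.075 FPKM from a single listed transcript with a gap in its numbering. The catalytic subunits of signal peptidase, SEC11A and SEC11C, averaged 6.08 ± 4.31 and 8.1 ± 2.11 FPKM.

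Among COPII genes the inner coat subunit SEC23A was highest. It was at 13.8, 14.9, 16.6, 19.2 and 16.96 FPKM in libraries 1 to 5, a mean of 16.3 ± 2.06 (SD, n = 5). Its paralogue SEC23B was listed at 0, 0.0102, 0, 1.96 and 0.0754 FPKM, so only library 4 held more than a trace. SEC13 of the outer coat averaged 12.5 ± 1.85 FPKM, but its binding partners SEC31A and SEC31B averaged 0.80 ± 0.155 and 1.15 ± 0.306 FPKM, with no gap in their numbering. The cargo-binding SEC24 genes formed a series on the FPKM scale of 11.8 ± 1.77 for SEC24B, 8.01 ± 0.349 for SEC24A, 5.03 ± 0.889 for SEC24D and 2.39 ± 0.311 for SEC24C, of which SEC24B and SEC24C had gaps. The exit-site scaffolds SEC16A and SEC16B lay at 1.75 ± 0.528 and 0.222 ± 0.12 FPKM. In all, 8 of 11 COPII genes passed the limit.

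All 6 listed COPI genes passed it, at means between 7.14 and 28.9 FPKM. COPA, the alpha subunit, was at 25.9, 25.5, 28.7, 32 and 32.3 FPKM in libraries 1 to 5. COPB1 (beta) was at 18.9, 20.1, 20.8, 24.9 and 23.5 FPKM. COPB2 (beta prime) was at 15.1, 16.2, 18.5, 20.2 and 20.6 FPKM. In all 3 genes the 2 highest values belonged to libraries 4 and 5 and the 2 lowest to libraries 1 and 2. COPE (epsilon) averaged 14.3 ± 2.62, COPG2 (gamma-2) 7.78 ± 1.68 and COPZ2 (zeta-2) 7.14 ± 1.61 FPKM (SD, n = 5). The p24 cargo receptor genes TMED2 and TMED5 averaged 19.7 ± 3.34 and 18.2 ± 4.21 FPKM, and TMED8 0.925 ± 0.335.

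Golgi tethers were led by GOLGA4, a long coiled-coil golgin of the trans-Golgi. Its sum was 68.98, 80.5, 62.4, 54.4 and 73.8 FPKM in libraries 1 to 5. USO1, which tethers vesicles arriving from the endoplasmic reticulum, was at 36.4, 43.3, 35.8, 46.3 and 44.5 FPKM. Of the other golgins GOLGA7, which partners a palmitoyl transferase, was at 3.24, 4.84, 12.02, 11 and 9.71 FPKM, low in libraries 1 and 2, and GOLGA2 averaged 1.33 ± 0.238 FPKM. The TRAPP genes were led by TRAPPC8 at 17.7 ± 1.44 FPKM, and the oligomeric Golgi complex by COG6 at 12.5 ± 2.31 FPKM (SD, n = 5). Both COG5 identifiers carried signal, at means of 9.96 and 3.61 FPKM, and how fragments were divided between them is unknown. VPS54 and VPS53 of the GARP tether averaged 10.4 ± 0.954 and 6.16 ± 0.659 FPKM, and VPS50, which replaces VPS54 in the endosomal form of that complex, 8.66 ± 0.321 FPKM. TRAPPC9 was the single gene among these Golgi tethers under 1 FPKM, at 0.0516 ± 0.0299 and with a gap in its numbering.

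The exocyst, which tethers secretory vesicles at the plasma membrane and takes part in GLUT4 delivery, had 6 of 7 listed genes detected. EXOC4 was highest, at 15.3, 21.2, 14.8, 13.99 and 19.6 FPKM in libraries 1 to 5. Then came EXOC2 at 12.8 ± 1.65, EXOC6 at 10.7 ± 1.46, EXOC1 at 9.12 ± 0.617, EXOC6B at 7.39 ± 0.651 and EXOC7 at 3.28 ± 0.738 FPKM (SD, n = 5). EXOC6 was above EXOC1 in 4 of 5 animals, lower in library 1, so these neighbours did not separate. EXOC3L1, a relative of the EXOC3 subunit, averaged 0.576 ± 0.217 FPKM.

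Of 21 SNARE genes 16 were detected. VAMP5, an R-SNARE known from mouse to be enriched in muscle, led them at 17.2, 19.1, 23.9, 34.5 and 22.2 FPKM in libraries 1 to 5. Library 4 was highest and library 1 lowest. STX8, an endosomal SNARE, averaged 16.8 ± 1.26, SEC22B, which acts between endoplasmic reticulum and Golgi, 12.5 ± 2.3, and the Golgi SNARE gene GOSR1 11.6 ± 0.914 FPKM (SD, n = 5). STX6, STX7, VTI1B, VAMP1 and SEC22C averaged under 1 FPKM, and 4 of these 5 had gaps in their numbering; STX6 had none.

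The SNAREs that fuse GLUT4 vesicles with the fibre surface are STX4, SNAP23 and VAMP2. SNAP23 was at 5.17, 10.6, 9.83, 10.8 and 14.1 FPKM in libraries 1 to 5, lowest in library 1 and highest in library 5. STX4 was at 3.85, 3.39, 4.34, 4.08 and 3.97 FPKM. VAMP2 was at 6.2, 4.11, 5.24, 2.69 and 5.14 FPKM, lowest in library 4. STX4 varied little, with an SD of 0.1 on the log2(FPKM + 1) scale, against 0.48 for SNAP23 and 0.37 for VAMP2. STXBP3, which encodes the STX4-binding protein Munc18c, averaged 17.03 ± 1.86 FPKM, while STXBP2, the form of blood and epithelial cells, averaged 0.847 ± 0.235 FPKM. Of the other syntaxin-binding genes STXBP4 averaged 8.02 ± 1.22 and STXBP6 5.14 ± 0.46 FPKM. SNAP25 and VAMP3 were not analysed here.

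Several genes known from nerve terminals were at or near the floor, and others were not. SYT1, the calcium sensor of synaptic vesicles, was listed at 0.134, 0, 0.00766, 0 and 0.396 FPKM, SYT6 and SYT7 stayed at or under 0.0599 and 0.0715 FPKM, and SNAP91, the neuronal relative of PICALM, averaged 0.0963 ± 0.0502 FPKM. SYT4 was at 0, 3.91, 4.19, 3.67 and 0 FPKM in libraries 1 to 5. It was thus present in 3 libraries and listed at 0 in libraries 1 and 5. SYT9 averaged 0.54 ± 0.431 FPKM. DNM1 and VAMP2, which also act at nerve terminals, averaged 2.67 ± 1.27 and 4.68 ± 1.33 FPKM (SD, n = 5). Of 10 nerve and glia markers 4 were listed, and their summed FPKM was 56.01, 41.8, 41.9, 57.97 and 43.04 in libraries 1 to 5, highest in libraries 1 and 4, with S100B the largest in each; their part in the values of these genes was not tested. NSF, the ATPase that takes spent SNARE complexes apart, averaged 0.67 ± 0.242 FPKM over 2 listed transcripts with gaps in their numbering.

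Clathrin genes were both abundant and even. The heavy chain gene CLTC was at 45.98, 46.8, 49.3, 47.6 and 45.1 FPKM in libraries 1 to 5. Its SD of 0.048 on the log2(FPKM + 1) scale was below that of all but 0.684% of detected genes. The light chain genes CLTA and CLTB were at 19.97, 24.6, 22.7, 22.5 and 28.5 FPKM and at 15.7, 20.1, 20.1, 20.7 and 17.5 FPKM. Summed, they came to 0.776, 0.956, 0.868, 0.909 and 1.02 times the heavy chain's FPKM, a mean ratio of 0.905 ± 0.0917 (SD, n = 5).

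PICALM, which brings clathrin and the SNARE VAMP2 together at the membrane, was at 43.5, 47.4, 50.1, 43.02 and 44.9 FPKM in libraries 1 to 5. Of the plasma membrane adaptor AP2, the medium chain AP2M1 averaged 18.6 ± 3.7, the large chain AP2A1 12.4 ± 0.581, AP2B1 5.11 ± 2.1 and AP2A2 3.22 ± 0.298 FPKM (SD, n = 5); AP2B1 was at 1.87 FPKM in library 3 and lay between 4.83 and 7.13 FPKM in the other 4. All 4 AP2 genes had gaps in their numbering. DNM2, the ubiquitous dynamin that pinches vesicles off and whose mutations cause centronuclear myopathy in people, averaged 11.5 ± 0.76 FPKM, above DNM1 at 2.67 ± 1.27 and DNM3 at 1.16 ± 1.05. Adaptor genes of other membranes included AP3D1 at 13.9 ± 0.568 and AP4E1 at 13.7 ± 1.25 FPKM, and the carrier membrane protein gene SCAMP1 stood at 14.8 ± 1.52 FPKM. AP1M1, AP3B1, AP1S1 and SNAP91 were the 4 of 28 members of this role under 1 FPKM, and the first 3 had gaps.

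Of 13 ESCRT genes 10 were detected, and those 10 reached 1 FPKM in each library. TSG101 of ESCRT-I was at 24.1, 33.01, 28.1, 35.8 and 34.3 FPKM in libraries 1 to 5. CHMP5 of ESCRT-III was at 21.6, 22.9, 27.5, 30.7 and 28.6 FPKM. VPS25 of ESCRT-II was at 18.6, 21.2, 23.8, 26.3 and 21.7 FPKM. As deposited, library 1 was lowest and library 4 highest for each of the 3 genes. These libraries also had the lowest and the highest FPKM summed over all genes, and the order after rescaling was not examined for single genes. The ATPases VPS4A and VPS4B, which disassemble ESCRT-III, averaged 12.2 ± 2.79 and 11.2 ± 1.61 FPKM, CHMP1A of ESCRT-III 12.4 ± 1.64 FPKM and STAM of ESCRT-0 10.2 ± 3.24 FPKM (SD, n = 5). HGS, the partner of STAM, averaged 0.139 ± 0.153 FPKM from 1 listed transcript with a gap, while CHMP3 averaged 0.361 ± 0.384 FPKM and CHMP4C stayed at or under 0.404 FPKM without one.

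Among the 39 genes of endosomal return 29 were detected, with COMMD3 highest. COMMD3, a subunit of the COMMD complex, was at 22.2, 29.7, 29.4, 39.9 and 32.98 FPKM in libraries 1 to 5. SNX13 averaged 18.03 ± 2.08, SNX9, which bends membrane at endocytic sites, 16.97 ± 2.54, SNX4 16.6 ± 1.96 and SNX2, a retromer-associated nexin, 16.6 ± 1.6 FPKM (SD, n = 5). Of the WASH complex, which grows actin on endosomes, WASHC4 and WASHC5 averaged 11.4 ± 0.855 and 8.07 ± 0.382 FPKM. The retriever subunits VPS35L and VPS26C averaged 4.56 ± 0.339 and 3.75 ± 0.572 FPKM and CCDC22, which links the COMMD proteins to it, 4.05 ± 0.215. SNX27, a nexin that links receptors to retromer, was listed at 0.0369, 0.019, 0.019, 0 and 0.515 FPKM. Of retromer itself, VPS26B averaged 0.663 ± 0.238 FPKM, and VPS29, shared with retriever, was listed at 1.52, 2.1, 0, 9.37 and 0 FPKM; VPS35 and VPS26A were not analysed here.

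For fusion of endosomes, the RAB5-binding tether gene EEA1 was at 20.7, 22.3, 16.5, 18.2 and 17.3 FPKM in libraries 1 to 5. VPS8 of the CORVET tether averaged 10.8 ± 0.80, VPS41 of the HOPS tether 9.17 ± 0.873 and VPS11, a core subunit of both, 9.22 ± 1.32 FPKM (SD, n = 5). VPS16, another shared core subunit, averaged 0.389 ± 0.532 FPKM and had a gap. The VPS13 genes, which encode large lipid transfer proteins at membrane contacts, averaged 17.5 ± 2.99 for VPS13C, 13.2 ± 1.17 for VPS13D and 8.68 ± 3.68 for VPS13B. The name rule also took in HGSNAT, a lysosomal enzyme gene, and the lipid-binding genes SEC14L1 and SEC14L5, at 7.96 ± 1.12, 1.34 ± 0.317 and 1.77 ± 0.868 FPKM, which do not belong to vesicle coats.

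Related genes were compared within libraries in 70 pairs, of which 34 had both genes listed. One gene was the higher in 5 of 5 animals in 30 of the 34, and in 22 of the 25 pairs with both genes detected. The same count was not made for unrelated genes, so it does not set related genes apart. Over 5 animals an exact permutation test that flips signs (two-sided) cannot give p below 0.0625, the value of each of these 30 pairs (0.0708 after Benjamini-Hochberg adjustment over 34), so none could pass 0.05. In 22 of the 34 pairs at least 1 gene had a gap in its transcript numbers. Of the 12 pairs with no gap in either gene, 10 had 1 direction in 5 of 5 animals. The absence of a gap does not show that all transcripts of a gene were listed.

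Among the pairs without gaps, STXBP3 lay 9.78-fold above STXBP2, where a fold is 2 to the power of the mean log2 ratio of FPKM + 1. SEC22B lay 2.62-fold above SEC22A, SCAMP1 1.68-fold above SCAMP2 and STX16 1.52-fold above STX5. The log2 ratios were 3.29 ± 0.28, 1.39 ± 0.27, 0.75 ± 0.14 and 0.6 ± 0.29 in that order (SD, n = 5; exact permutation p = 0.0625 for each). Smaller but equally one-sided ratios were found for SNX13 over SNX14, 0.29 ± 0.13, and for COPB1 over COPB2, 0.25 ± 0.07. CLTA over CLTB gave 0.31 ± 0.22, but with only the most abundant transcript of each gene the ratio was -0.52, since 2 CLTA transcripts shared that gene's signal. BET1 over BET1L gave -0.89 ± 0.21, so the BET1L form was the higher, and VPS13B over VPS13D -0.69 ± 0.86, or -0.31 without library 2.

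Pairs in which a gap affected at least 1 gene included some of the widest ratios. DNM2 over DNM1 gave 1.84 ± 0.56 and DNM2 over DNM3 2.66 ± 0.72 (SD, n = 5). VAMP5 over VAMP2 gave 2.1 ± 0.71, SNX2 over SNX1 3.15 ± 0.34, SNX6 over SNX5 2.9 ± 0.24 and AP2A2 over AP2A1 -1.67 ± 0.12. For VTI1B over VTI1A the ratio was -3.0 ± 0.23 and for GOSR2 over GOSR1 -2.45 ± 0.43. In the same 5 libraries AP2B1 over AP1B1 gave 1.29 ± 0.60, STXBP5 over STXBP5L 2.45 ± 0.42, VAMP2 over VAMP1 1.6 ± 0.36 and STX4 over STX3 0.38 ± 0.28. The lower genes SNX5, VTI1B, VAMP1 and STXBP5L averaged under 1 FPKM. EXOC6B over EXOC6 gave -0.48 ± 0.25, SEC24A over SEC24B -0.49 ± 0.22 and SEC24C over SEC24D -0.82 ± 0.22, so in these 3 the second gene was the higher. GOLGA4, SEC23A, SEC22B, EPN1 and AP1S2 exceeded GOLGB1, SEC23B, SEC22C, EPN2 and AP1S1 in 5 of 5 animals, but each of the lower genes was listed at 0 in at least 1 library and no fold is given. The 4 pairs that did not point 1 way were EPS15 and EPS15L1, SEC11A and SEC11C, SEC31A and SEC31B, and VPS4B and VPS4A, with exact permutation p of 1, 0.312, 0.125 and 0.625 (adjusted 1, 0.332, 0.137 and 0.644). VPS4B over VPS4A averaged -0.085 ± 0.33 and was 0.0035 without library 2.

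**Figure D2:**
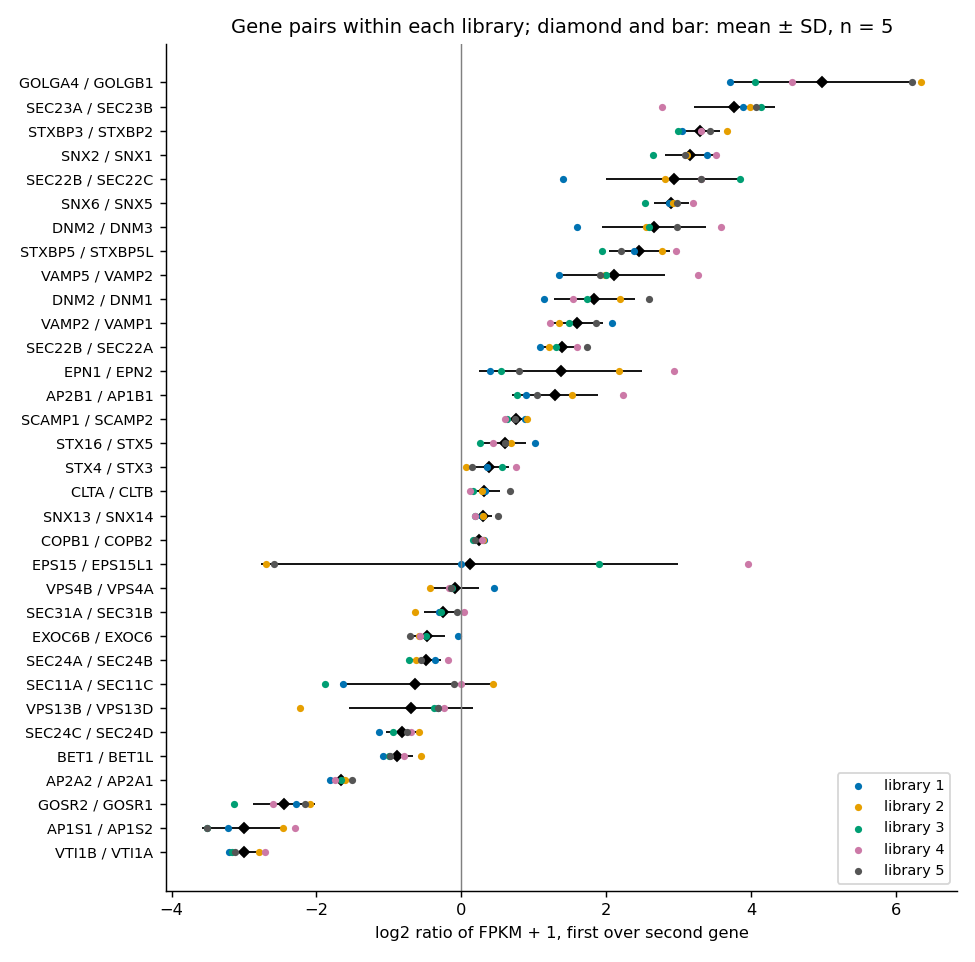
log2 ratio of FPKM + 1 of the first over the second gene of 33 of the 34 listed pairs, 1 coloured point per library, with the mean (diamond) and SD (bar) over 5 libraries. In 29 of these pairs all 5 points lie on 1 side of 0; EPS15 over EPS15L1 has the widest bar.

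Deviations from each gene's own mean were then compared by role. COPI genes lay above their own mean in 6 of 6 cases in library 4 and in library 5, and in 1 of 6 in library 1 and in library 2. Over all detected genes the shares above their own mean were 50.3%, 46.2%, 57.0%, 52.3% and 53.4% in libraries 1 to 5, and after rescaling to the mean library total 60.8%, 48.8%, 54.6%, 39.3% and 54.4%. The COPI median deviation on the log2(FPKM + 1) scale was -0.18, -0.15, -0.025, 0.21 and 0.17 in libraries 1 to 5, and the same counts for libraries 1, 2, 4 and 5 and the same 5 signs were found after rescaling to the mean library total and with median-ratio size factors. For ESCRT genes the medians were -0.22, -0.13, 0.025, 0.22 and 0.14, with 1 of 10 above its own mean in library 1, or 3 of 10 after rescaling to the mean total. Clathrin and endocytosis genes had medians between -0.093 in library 1 and 0.049 in library 2, but after rescaling to the mean total library 4 was lowest, at -0.12. Golgi tethers were highest in library 4 as deposited, at 0.11, and in library 1 after that rescaling, at 0.11. The COPI pattern was not particular to that role. Of 5 detected translocon and signal peptidase genes, 5 lay above their own mean in library 4 and in library 5, and 1 in library 1. After rescaling to the mean total these counts were 4, 5 and 1. Not all roles shared the pattern: of 3 VPS13 genes 1 lay above its own mean in library 4 and 2 did in library 1. Differences between roles were not tested.

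**Figure D3:**
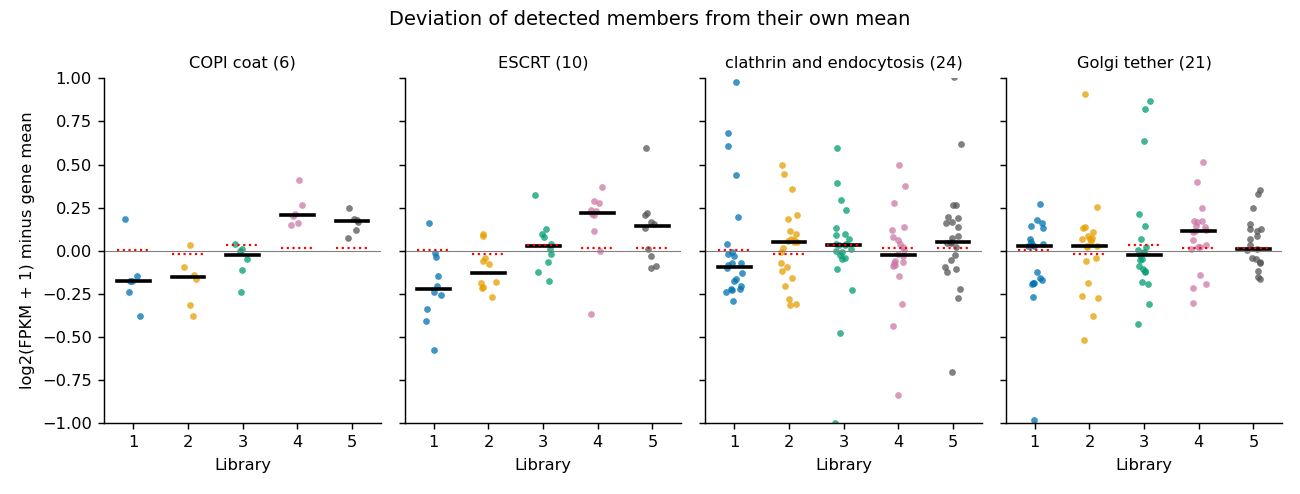
Deviation of each detected member from its own mean over 5 libraries, log2(FPKM + 1), for 4 roles with the number of genes in brackets; black bars are medians over members, dotted red bars medians over all 6136 detected genes, and 18 points lie beyond the axis limits of -1 and 1. The COPI points of libraries 4 and 5 all lie above 0. Those of the clathrin role lie on both sides of it in each library, with 6 of 24 above it in library 1.

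Over all 143 detected members the median deviation was -0.073 in library 1 and 0.078 in library 4, beside 0.0017 and 0.017 over all detected genes. These libraries also had the lowest and the highest summed FPKM, and after rescaling to the mean library total the members' medians changed sign, to 0.0087 and -0.02, beside 0.082 and -0.074 over all detected genes. Of the 72 members of shortest genomic span, introns included, 56 (77.8%) were higher in library 4 than in library 1, and of the 71 of longest span 33 (46.5%). Divided at the same span, all detected genes were higher in library 4 in 59.4% of 3344 shorter and 38.7% of 2792 longer genes. Across the 143 members Spearman's rho between span and the library 4 minus library 1 difference was -0.396, and across all 6136 detected genes -0.217; genes share the same libraries and are not independent, and the split by span was chosen after values had been seen. The 3 listed of 6 fibroblast and matrix markers summed to 845, 394, 541, 769 and 460.5 FPKM in libraries 1 to 5, high in both library 1 and library 4. COL3A1 was the largest in each library. PDGFRA was at 25.9, 19.9, 26.9, 32.1 and 26.8 FPKM, highest in library 4. The 4 listed of 5 smooth muscle and pericyte markers summed to 60.4, 30.98, 43.4, 36.1 and 22.96 FPKM, highest in library 1. ACTA2 was the largest of them in each library. ACTA2, MYH11 and RGS5 were highest in library 1, and PDGFRB in library 2. The 6 listed of 6 endothelial markers summed to 103, 89.8, 99.7, 96.3 and 103 FPKM. The 3 listed of 6 leukocyte markers stayed at or under 5.27 FPKM in sum and CIDEC, the 1 listed of 5 adipocyte markers, at or under 0.809 FPKM. The part of these cell types in the members' values was not tested.

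Most members were even between animals. The median SD of log2(FPKM + 1) was 0.20 over the 143 detected members and 0.25 over all 6136 detected genes. At means of at least 10 FPKM the 5 most even were CLTC, AP3D1, SNX14, AP2A1 and SEC63, with SDs from 0.048 to 0.082. An SD of at least 1 was found for 8 members (5.59%), beside 3.63% of all detected genes. That count was 1 where each library had to reach 1 FPKM, 3 at a limit of 5 FPKM and 17 after rescaling to TPM. A pattern of under 0.1 FPKM in 1 library and at least 5 in another was found for 4 (2.80%), beside 1.47%. One library stood apart from the other 4 by Dixon's gap ratio in 4 members (2.80%), beside 7.37%; 2 members did at a limit of 5 FPKM, 8 after rescaling to the mean library total and 10 after rescaling to TPM. These shares were not tested against each other.

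The 8 variable members were EPS15, EPS15L1, VPS29, WASHC1, TRAPPC3, SYT4, SEC11A and GOLGB1. EPS15, an endocytic adaptor at the rim of clathrin pits, was listed at 0, 0, 21.5, 14.5 and 0 FPKM in libraries 1 to 5; the table places it at chr3:94802855-94942185, with no build named there. Its paralogue EPS15L1, at chr7:6553352-6659290, was listed at 0, 5.48, 5.06, 0 and 5.0 FPKM. Only library 3 held both, library 4 only EPS15, libraries 2 and 5 only EPS15L1, and library 1 neither. EPS15 was represented by the single transcript EPS15-203, with lower numbers missing from the table.

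WASHC1, the actin-nucleating subunit of WASH, was at 6.79, 0.00793, 0, 0.00815 and 0.00451 FPKM in libraries 1 to 5, present in library 1 alone, while WASHC3, WASHC4 and WASHC5 were at 2.60 FPKM or more in all 5. TRAPPC3 was at 1.25, 8.37, 8.1, 9.39 and 0.547 FPKM, low in libraries 1 and 5, and SEC11A at 1.57, 7.92, 1.31, 9.76 and 9.86 FPKM, low in libraries 1 and 3. GOLGB1, which encodes the giant golgin, was listed at 4.36, 0, 2.84, 1.35 and 0 FPKM, with its 3 listed transcripts all at 0 in libraries 2 and 5. EPN2, an epsin just under the threshold with an SD of 0.98, was listed at 3.83, 1.42, 3.55, 0 and 3.62 FPKM. Of the 8 members 6 had a single listed transcript, beside 90 of the 143 detected members. Gaps in the numbering were found for 5 of the 8, beside 45 of the 143. Over all 173 numbered genes of this spread 59.5% had gaps. Listed at 0 in at least 1 library were 6 of the 8, beside 7 of the 143. A value of 0 in such an estimate does not show that the gene was silent.

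**Figure D4:**
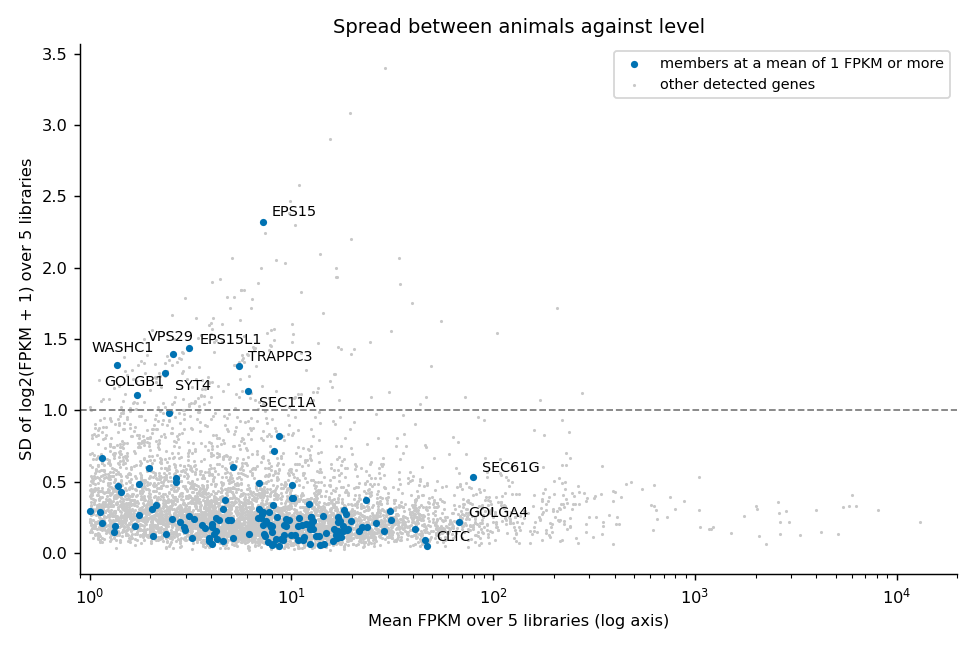
SD of log2(FPKM + 1) over 5 libraries against mean FPKM (log axis) for the 143 detected members (blue) and all other detected genes (grey), with the dashed line at an SD of 1. The 8 members above the line are named, EPS15 highest, and CLTC lies near the bottom.

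The transcript with the highest estimate could change while the gene's sum stayed even. Whether such a change lay in transcript use or in how shared fragments were divided between transcripts was not tested. Of 53 detected members with 2 or more listed transcripts, the same transcript was the highest in every library with signal in 43, and in 10 (18.9%) it was not, beside 695 of 2421 such genes over the whole table (28.7%). In EEA1, whose sum stayed between 16.5 and 22.3 FPKM, EEA1-202 was at 18.8, 19.6, 14.4, 6.45 and 7.68 FPKM in libraries 1 to 5. EEA1-203 was at 0, 0, 0, 10.2 and 0 FPKM. EEA1-204 was at 0, 0, 0, 0 and 8.4 FPKM. Thus EEA1-203 was seen in library 4 alone and EEA1-204 in library 5 alone, the libraries in which EEA1-202 was lowest.

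SNX9 had a similar change of estimates in library 1. SNX9-204 was at 0.0515, 15.96, 13.9, 10.3 and 16.7 FPKM in libraries 1 to 5. SNX9-201 was at 16.96, 2.86, 2.82, 2.39 and 2.12 FPKM. The first carried 0.30% of the gene in library 1 and at least 80.8% in each other library. In EXOC1, EXOC1-205 carried 75.5% in library 5 and at most 15.01% elsewhere. The other genes with a changing top transcript were COMMD6, DNM1, DNM3, SNX1, SNX29, VPS13C and VTI1A.

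The highest sums were spread over several transcripts. GOLGA4-206 carried 29.04%, 32.2%, 40.9%, 52.6% and 53.8% of its gene in libraries 1 to 5, among 6 listed. PICALM-208 led 7 listed transcripts with 40.4% of the gene's mean, and CLTA-205 and CLTA-203 carried 53.9% and 42.5% of CLTA. DNM2-202 carried 65.5% of DNM2, ahead of DNM2-205 with 24.7%.

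**Figure D5:**
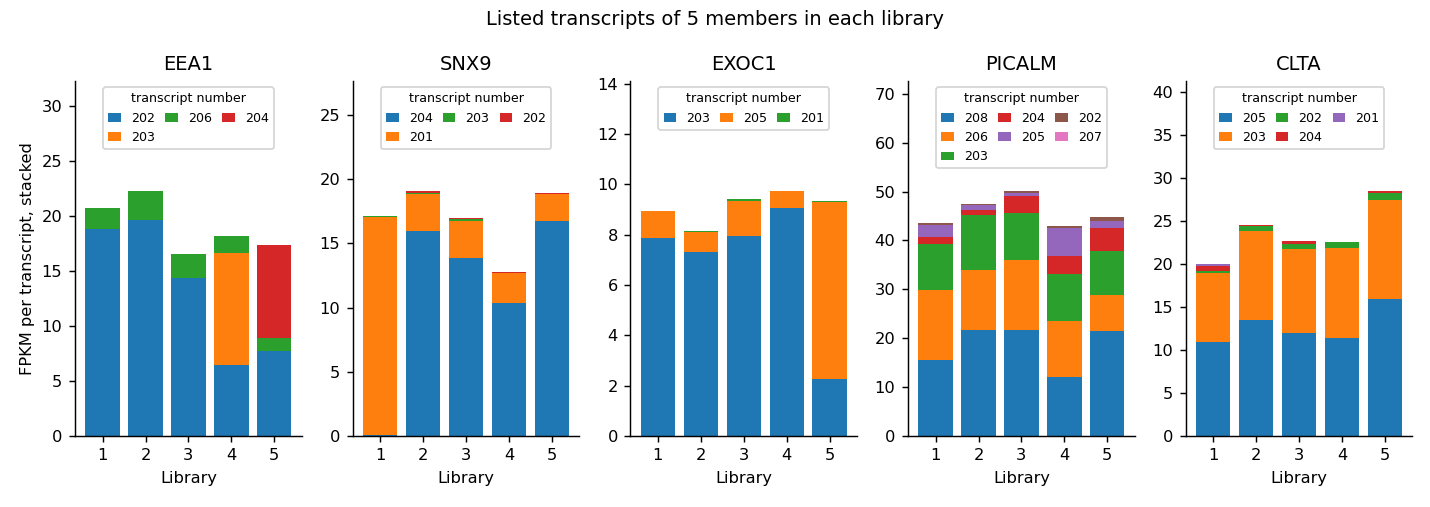
FPKM of the listed transcripts of EEA1, SNX9, EXOC1, PICALM and CLTA, stacked per library, each colour a transcript number, stacked in order of mean from the bottom. The height of the EEA1, SNX9 and EXOC1 bars differs less between libraries than their colours do, while both main CLTA transcripts are present in every library.

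Partner genes outside these families were also present. Of 24 ARF and RAB GTPases of vesicle traffic 13 were listed and 11 detected, with SAR1B, which starts COPII assembly, at 56.8, 93.7, 97.7, 100.03 and 91.1 FPKM in libraries 1 to 5. Library 1 was lowest, as for SEC23A. ARF4 averaged 48.4 ± 3.32, RAB2A 27.2 ± 7.48 and RAB7A 15.8 ± 2.61 FPKM (SD, n = 5). Among 24 regulators and coat partners 20 were listed and 17 detected, led by BIN1, the membrane-bending gene of muscle invaginations, at 224 ± 28.8 FPKM, above every member of the coat, SNARE and sorting families. Of 15 cargo and receptor genes 10 were listed, all 10 detected. The transferrin receptor gene TFRC averaged 143 ± 29.8, LNPEP, the aminopeptidase that travels with GLUT4, 41.6 ± 11.2 and SORT1, which encodes sortilin, 27.9 ± 3.25 FPKM. SLC2A4, which encodes GLUT4, was not analysed here.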

How the data were processed

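Total RNA of longissimus dorsi muscle was prepared with an RNA library kit, 1 library per animal, per the labels' protocols. The authors deposited 1 FPKM value per transcript in each library, per the file headers. Build UMD3.1 and the tools HTSeq (0.6.0) and DESeq2 (1.10.1) are named, without roles, in the submitters' processing notes; the aligner and the program that estimated FPKM are not given in the sources used here. Symbols of all 179 members were found in a RefSeq table of ARS-UCD2.0, and 178 of 178 members compared by position overlapped their place there, so the table's coordinates are printed with no build claimed. Sequences were not used here.

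Transcript FPKM were summed per gene identifier and analysed as log2(FPKM + 1), which understates differences of low genes; a gene counted as detected at a mean of 1 FPKM or more. The work ran in Python 3.11.15 with pandas 2.3.3, numpy 2.4.6, matplotlib 3.10.9 and scipy 1.17.1. Pairs were tested by flipping the signs of the 5 within-library log2 ratios (exact permutation test, two-sided) and adjusted by the Benjamini-Hochberg method; the values of 1 member and its pair are not reported here. A library was called distant by Dixon's gap ratio above 0.71. Both rules were tried on simulated, normally distributed values of equal spread, without zeros and with large planted shifts. The data differ in each of these points, so the trial does not show how the rules perform here. SDs describe the spread between 5 animals, 1 library each, so differences between animals and noise of a library cannot be told apart. The permutation p-value does not measure spread: with 1 direction in 5 of 5 animals it is 0.0625 whatever the SD. No interval for counting error was computed, as depth is unknown.

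The members, roles, pairs and gene lists were chosen with earlier results of these data known. Genes were named by a rule: in each role the 4 of highest mean, the 2 detected ones of greatest SD, both genes of a listed pair, members with a distant library, members under 0.1 FPKM in 1 library and at 5 or more in another, and the 5 most even at 10 FPKM or more. Other genes were named as further members of a complex, after their values had been seen. Alternatives were a pseudocount of 0.1, no detection limit, a limit of 5 FPKM or of 1 FPKM in each of the 5 libraries, TPM made by rescaling, median-ratio size factors, the top transcript only, leaving out translocon and off-pathway members, leaving out each library and, added after seeing the data, rescaling to the mean library total.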

Additional observations from a re-analysis of the deposited data

Results flagged for a closer look

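In 4 of the 143 detected members (2.80%) 1 library stood apart from the other 4 by Dixon's gap ratio, beside 7.37% of all detected genes; the limit is set so that chance marks about 1 in 20 groups of normally distributed values, which these need not be. With rescaling to the mean library total, 8 members did. VPS13B was at 2.20 FPKM in library 2 and between 9.5 and 11.3 FPKM in the other 4. WASHC1 reached 6.79 FPKM in library 1, and its highest value elsewhere was 0.00815 FPKM. WASHC3, another subunit of the same complex, was at 3.91 FPKM in library 4 and between 2.6 and 2.86 FPKM in the rest. GOSR1 was at 10.05 FPKM in library 4 and between 11.8 and 12.5 FPKM in the others, a gap that is large only against the small spread of that gene. None of the 4 genes had a gap in its transcript numbers, and 3 of them were represented by 1 listed transcript, VPS13B by 2.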

How the results depend on the processing

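No paired analysis was possible because the 5 libraries form 1 group, with no other group whose samples could be matched to them; gene pairs were compared within libraries. The count of detected members, 143, was 96 at a limit of 5 FPKM and 126 with 1 FPKM required in every library. It was 167 after TPM rescaling. The count of pairs with 1 direction, 30 of 34, was 29 with the top transcript only. It was 22 among the 25 pairs with both genes detected. Both counts stayed within 1.5 times under every alternative run for them. Leaving out 1 library gave 141 to 144 members and 30 to 31 pairs. The count of members with an SD of at least 1, 8, was 3 at a limit of 5 FPKM, 1 with 1 FPKM required in every library and 17 after TPM rescaling, and 7 to 9 without 1 library. The count with a distant library, 4, was 2 at a limit of 5 FPKM, 8 with no limit, 8 for the top transcript only, 10 after TPM rescaling and 8 after rescaling to the mean total. The median level of detected members, 3.16 on the log2 scale, was 3.64 at a limit of 5 FPKM, 2.73 with no limit, 3.01 with a pseudocount of 0.1 and 5.13 after TPM rescaling, and 3.14 to 3.21 without 1 library. TPM values run higher than FPKM here, so a limit and pseudocount of 1 weigh less. The members' median deviation changed sign in library 1 (-0.073; 0.024 with TPM, 0.0087 with the mean total), library 4 (0.078; -0.021 and -0.020) and library 3 (0.012; -0.0058 with size factors). The ratio of CLTA over CLTB was -0.52 with the top transcript only, VPS4B over VPS4A ran from -0.22 without library 1 to 0.0035 without library 2, and EPS15 over EPS15L1 from -0.85 without library 4 (-0.33 without library 3) to 0.82 without library 2. The other 200 recomputed pair ratios kept their sign. Unknown depth and unlisted transcripts limit every low value.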
